A study of Mus musculus with 8 samples.

Results

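The cells examined here were sorted from mouse frontal isocortex at postnatal day 7 for a golli-τ-eGFP transgene (GTE), and libraries from Foxp2 conditional knockout (cKO) mice were set against controls. Members were the deposited GTE cells with at least 1000 unique molecular identifiers (UMIs, tags that mark single captured RNA molecules), and their counts were summed within each library. They numbered 7354 of 11382 GTE cells and of 22876 cells in the whole series, which also holds a sort for a Drd1a-tdTomato transgene (D1Tom). Both GTE control libraries came from mice with floxed Foxp2 alleles and the reporter but no Cre, and both GTE cKO libraries carried Emx1-Cre in addition. All 4 libraries therefore shared the floxed alleles and the reporter, and only the cKO libraries had Cre, so a Cre-only control was not part of the comparison. Control 1, control 2 and cKO 1 were labelled male and cKO 2 female, so sex was unbalanced between the genotypes. Values of the 4 libraries are given throughout in the order control 1, control 2, cKO 1, cKO 2. The labels do not say how many animals went into a library, and p-values below measure only the spread between these libraries.

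Foxp2 encodes a forkhead transcription factor that, in the cortex, is best known from the excitatory corticothalamic neurons of layer 6. Emx1-Cre recombines in progenitors of the dorsal forebrain, whose progeny include cortical excitatory neurons, most cortical astrocytes and a share of oligodendrocyte precursors, while microglia, blood vessel cells and cortical interneurons come from other sources. The golli promoter is an upstream promoter of the myelin basic protein locus that is also active in neurons, and golli-τ-eGFP is used to mark deep cortical neurons such as those of the subplate and layer 6. In the week after birth, astrocytes and oligodendrocyte precursors of the cortex still divide and myelination has only begun.

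The 4 libraries were not alike in cell quality, and cKO 1 stood apart. The cells kept numbered 2196, 1827, 1430 and 1901, which was 55.6%, 59.5%, 99.3% and 65.0% of the deposited cells of each. Total UMIs lay between 3963210 and 5063194 per library. Median UMIs per cell were 1617.5, 1690 and 1801 in control 1, control 2 and cKO 2, and 2991 in cKO 1. With every cell thinned to 1000 UMIs, the median number of genes detected was 411, 471 and 406 in those libraries and 638 in cKO 1. Ribosomal protein genes took a median 24.3%, 19.2% and 25.8% of a cell's UMIs in them, against 7.83% in cKO 1, and mitochondrial genes 7.23%, 8.32% and 8.94%, against 3.34%. Library pairs shared between 0 and 7 cell barcodes. List medians and the main results below are also given without cKO 1.

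**Figure D1:**
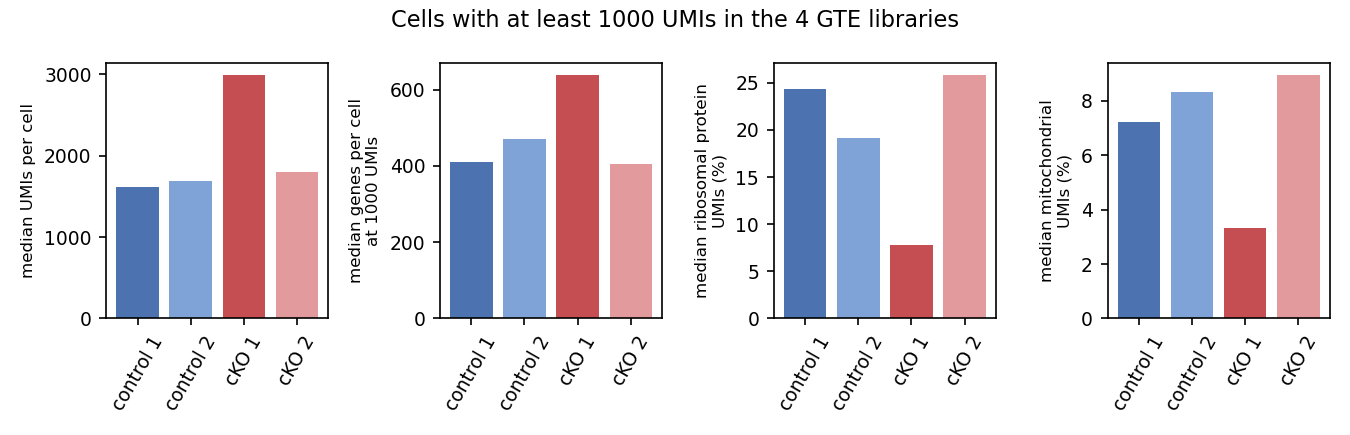
Median UMIs per cell, median genes detected per cell after thinning to 1000 UMIs, and the median percentages of ribosomal protein and mitochondrial UMIs (y axes) in the 4 GTE libraries (x axis), over cells with at least 1000 UMIs. The cKO 1 bar is the highest for UMIs (2991) and genes (638) and the lowest for ribosomal (7.83%) and mitochondrial (3.34%) shares, and the other 3 libraries lie close together.

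Over all genes tested, cKO 2 was closer to either control than the controls were to each other. The median absolute log2 difference per gene, in CPM (a gene's count per 1000000 counts of the library's summed cells), was 0.40 between control 1 and cKO 2 and 0.38 between control 2 and cKO 2. It was 0.63 between the 2 controls and 0.74 between the 2 cKO libraries. The 2 controls differed more than 2-fold at 28.1% of 11977 genes, and the 2 cKO libraries at 32.3%. The cKO 1 library had the highest CPM for 62.3% of genes, and 1698 genes were more than 2-fold higher in it than in each of the other 3. These values are unscaled CPM, so they include any offset between whole libraries. Spearman rank correlations, which such an offset does not change, were 0.946 for control 1 with cKO 2 and 0.951 for control 2 with cKO 2. They were 0.910 between the 2 controls and 0.913 between the 2 cKO libraries.

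The cells captured were a mixture in which the cells that could be named were mostly glia. Clustering gave 14 clusters, of which 9 took a name from marker lists and 5, with 68.2% of the cells, did not. The named cells comprised 1038 astrocyte-like, 701 oligodendrocyte precursor-like, 255 dividing, 121 microglia-like, 114 oligodendrocyte-like, 76 layer 6 corticothalamic-like, 15 Cajal-Retzius-like and 15 endothelial-like cells. The unnamed cells had a median of 1592 UMIs and 494 genes. Cluster 1, the largest with 2172 cells, was led by the neuronal genes Ctxn2, Npy, Tubb3 and Stx1a. Cluster 2, with 1497 cells, was led by Gng13 and ribosomal protein genes such as Rps2. Cluster 6, with 473 cells, had Camk2a and Bhlhe22 among its leading genes, both genes of cortical excitatory neurons, but did not meet the rule for a name.

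Hs3st4 and Tle4, markers of deep-layer neurons, were low in most of the sort, while some general neuronal genes were not. Rprm, of the same layer 6 corticothalamic list, was spread more widely. It was at 646 CPM in the layer 6 corticothalamic-like cells, 405 CPM in oligodendrocyte precursor-like cells and 193 CPM in cluster 1. Fabp7, the fatty acid binding protein of radial glia and astrocytes, was at 15288 CPM in astrocyte-like cells and still at 8582 CPM in cluster 1 and 8399 CPM in cluster 2, against 792 CPM in the layer 6 corticothalamic-like cells. After thinning to 1000 UMIs, a Fabp7 UMI was found in 92.9% to 96.7% of the cells of each library. The share was 68.6% in microglia-like cells, which should lack the gene, so a UMI in a cell outside the glial classes cannot be read as expression of the gene. Snap25, a synaptic vesicle fusion protein of neurons, was found in 8.61%, 19.4%, 10.3% and 9.99% of thinned cells of the 4 libraries, against 7.44% in microglia-like cells and 67.1% in layer 6 corticothalamic-like cells. The 6 listed excitatory neuron markers summed to 337, 611, 216 and 364 CPM in the same order of libraries. The layer 6 corticothalamic-like cluster had each of its 6 markers at least 2-fold above the remaining cells, among them Hs3st4 at 317 CPM and Tle4 at 388 CPM, and Vip, an interneuron peptide, was among its leading genes. None of those 6 markers was among its 10 leading genes, and the name changed with the UMI minimum.

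**Figure D2:**
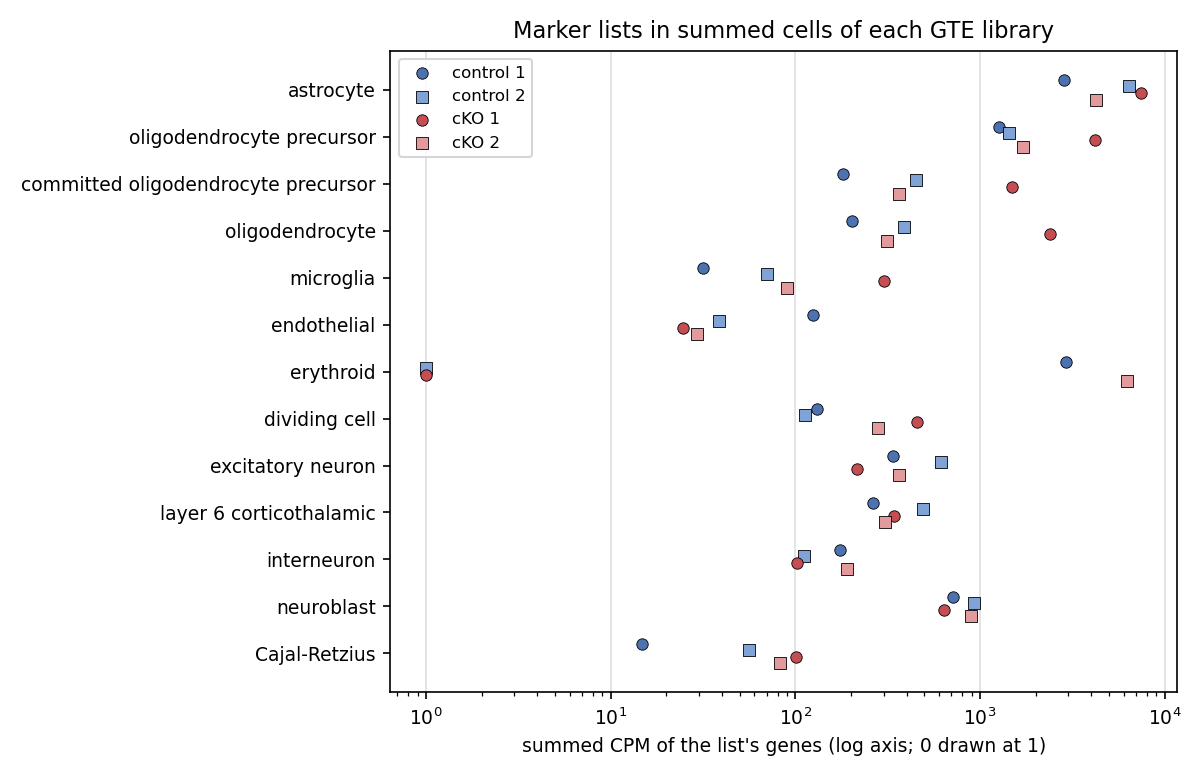
Summed CPM of the genes of 13 marker lists (y axis) in the summed cells of each GTE library, on a log x axis with 0 drawn at 1. Library cKO 1 has the highest points for the oligodendrocyte lineage lists and the lowest for excitatory neuron markers (216 CPM), and the erythroid markers are at 0 in control 2 and cKO 1.

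The sort's glia-like cells, taken as the astrocyte-like, oligodendrocyte precursor-like, oligodendrocyte-like and microglia-like cells together, made up 9.93%, 24.5%, 69.2% and 16.8% of the libraries. The cKO 2 share lay between the 2 controls, and only cKO 1 lay outside them. The mean was 17.2% ± 10.3 (SD, n = 2) in controls and 43.0% ± 37.1 (SD, n = 2) in cKO libraries. The difference of 25.8 percentage points had an exact two-sided permutation p of 0.667, and 2 libraries against 2 cannot give a p below 0.333. Without cKO 1 the difference was -0.42 percentage points. Astrocyte-like cells were 5.01%, 13.5%, 36.1% and 8.73% of the libraries, and oligodendrocyte precursor-like cells 3.69%, 7.83%, 25.9% and 5.58%. One of the 2 astrocyte-like clusters held 501 cells of cKO 1 among its 669. The other, which was led by the immediate early gene Fos, held 15 cells of cKO 1 among its 369. Which cells a class held therefore differed between cKO 1 and the other libraries, also within a name.

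Of the 13 classes and the glia-like sum, 3 had shares that did not overlap between the genotypes. Dividing cells made up 2.64%, 1.92%, 6.85% and 3.37% of the libraries, with both cKO libraries above both controls. Cluster 8, an unnamed cluster of 260 cells, made up 4.83%, 4.16%, 2.59% and 2.16%, with both cKO libraries below both controls. Endothelial-like cells numbered 7, 5, 0 and 3, and 0 of 1430 cells in cKO 1 allows a share of up to 0.210%. Each of these had an exact permutation p of 0.333, the smallest this design allows, and an adjusted p of 0.778 over the 14 shares. Set against named cells only, dividing cells were 20.4%, 6.45%, 8.78% and 16.4%, with overlap between the genotypes. The layer 6 corticothalamic-like cells numbered 2, 52, 20 and 2, so their share differed as much between replicates as between genotypes.

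**Figure D3:**
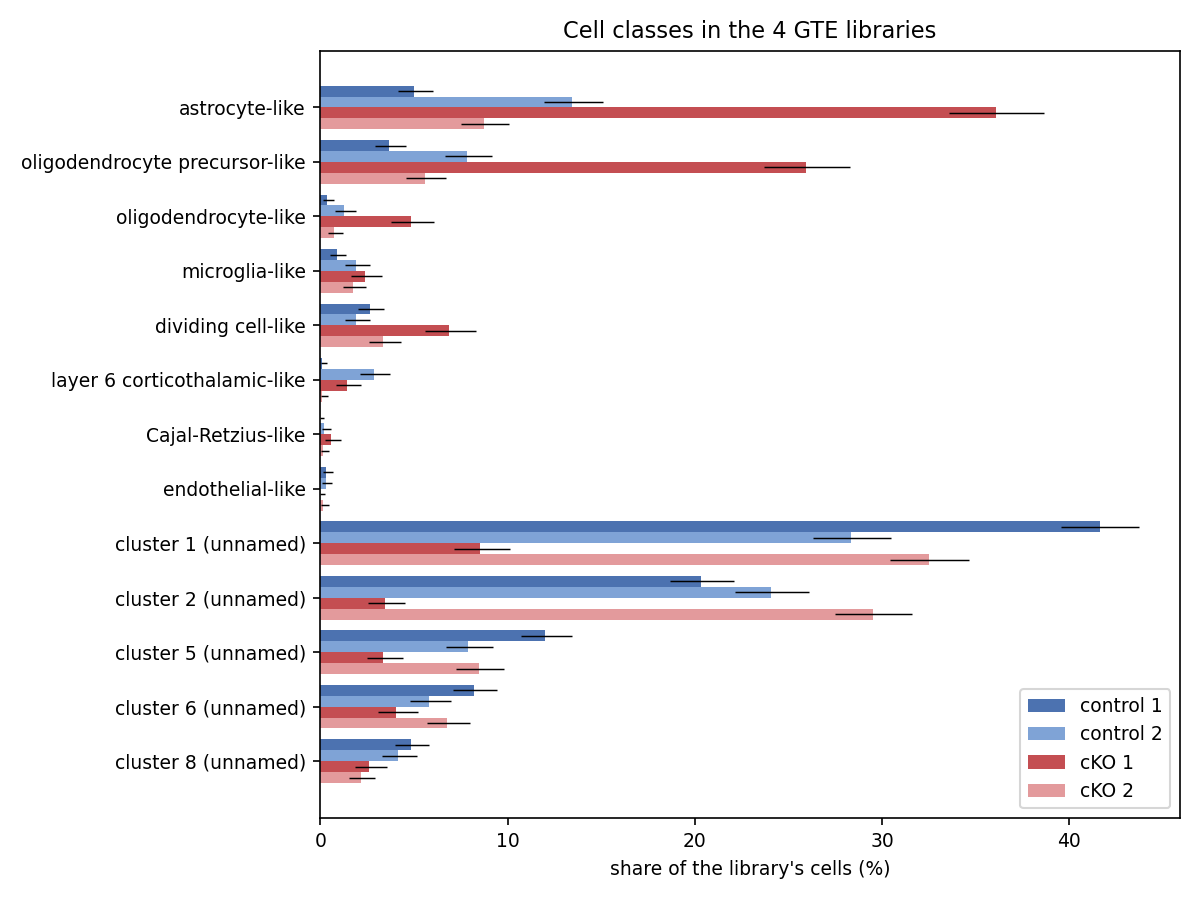
Share of each library's cells (x axis, %) in the named classes and the unnamed clusters (y axis) for the 4 GTE libraries, with exact 95% binomial intervals that cover counting of cells only. In cKO 1 astrocyte-like (36.1%) and oligodendrocyte precursor-like cells (25.9%) take the place that clusters 1 and 2 hold in the other 3 libraries.

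Foxp2, the targeted gene (GRCm38 chromosome 6, 14901349 to 15441977, plus strand), did not separate the genotypes. It was at 10.6, 50.7, 25.5 and 8.60 CPM, from 51, 201, 129 and 42 counts. Control 2 was high, control 1 lay between the 2 cKO libraries, and the groups overlapped. The log2 fold change was -1.19 with a standard error of 0.55 and an adjusted p of 0.991 by edgeR's quasi-likelihood test, and it was 0.03 without control 2. Of the 201 counts in control 2, 106 came from its 52 layer 6 corticothalamic-like cells, a level of 334 CPM. The 20 such cells of cKO 1 held Foxp2 at 22.9 CPM. Over the other cells, leaving out that class, the log2 fold change was -0.52. The libraries were counted from the 3′ end of transcripts, so a transcript that lost internal exons can still be counted, and these levels alone do not check the deletion.

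Foxp2 was spread thinly over many classes. Oligodendrocyte precursor-like cells had 17.2, 58.8, 30.04 and 39.7 CPM, without separation of the genotypes. Astrocyte-like cells had 26.4, 18.0, 12.0 and 6.34 CPM, so both cKO libraries were below both controls, at 5 to 19 counts a library, with a log2 fold change of -1.33 and an adjusted p of 1.0 by edgeR. Thinned to 1000 UMIs, a Foxp2 UMI was found in 13, 36, 29 and 9 cells, which was 0.592%, 1.97%, 2.03% and 0.473%, against 0 of 121 microglia-like cells, which allows up to 2.48%. The library shares lay under that limit, while the share in layer 6 corticothalamic-like cells was 13.2%. Its relatives Foxp1 and Foxp4 had log2 fold changes of -0.65 and -0.27, and their groups overlapped.

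Across 11977 genes, edgeR called 1 gene at an adjusted p under 0.05, 0.00835% of those tested. It was lower in cKO, and none was higher. At an unadjusted p under 0.05, 279 genes were higher in cKO, 2.33%, and 294 lower, 2.45%. Both cKO libraries were above both controls in CPM for 2274 genes, 19.0%, and below both for 815, 6.8%. Scaled by TMM factors, which were 1.41 for cKO 1 and 0.757 to 1.03 for the others, the same counts were 1822, 15.2%, and 1754, 14.6%. The asymmetry in CPM was thus not present after scaling. Fold changes below use the scaled counts.

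The gene called, Ctla2a, a protease inhibitor abundant in endothelial cells (chromosome 13, 60934155 to 60936625, minus strand), was at 24.6, 3.28, 0 and 1.02 CPM. Its log2 fold change was -5.17 with a standard error of 0.87 and an adjusted p of 0.0013 by edgeR. Control 1 stood far above the rest, and 115 of its 118 counts came from 7 endothelial-like cells. The endothelial-like class also carried haemoglobin genes, with Hbb-bs at 51728 CPM, so it may hold blood cells or mixed droplets, which was not tested. With the 15 endothelial-like cells of the 4 libraries left out, Ctla2a fell under the filter on low counts and edgeR called 0 of 11924 genes, with 566 at an unadjusted p under 0.05. DESeq2 on all cells did not call it, with a log2 fold change of -5.00 and an adjusted p of 0.999. By edgeR the call was also lost without control 1, with a log2 fold change of -2.65 and an adjusted p of 1.0, and without cKO 1, with -3.89 and 0.0827. In the blocked fit the values were -4.59 and 0.0506.

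Other genes of blood vessels were highest in control 1 and were not called. Cldn5, the tight junction claudin of brain endothelium, had the largest log2 fold change of the endothelial list, -3.74, with an adjusted p of 0.0706 by edgeR. It was at 48.9, 2.78, 0 and 4.92 CPM, so control 1 alone was high and the groups overlapped. It was called by edgeR in several alternatives, such as with all deposited cells. Without haemoglobin-rich cells its log2 fold change was -5.83, with an adjusted p of 8.55e-06 by edgeR. That filter took out 2 cells of control 1, 4 of cKO 2 and 0 of the others, and the endothelial-like class itself carried haemoglobin genes. The larger fold change can thus come from the loss of vessel cells of cKO 2, which was not tested. Flt1, a receptor for vascular endothelial growth factor, was at 20.4, 6.81, 0 and 4.10 CPM, with a log2 fold change of -3.01 and an adjusted p of 0.167 by edgeR. Kdr, the main signalling receptor for that factor, was at 10.6, 3.78, 0 and 1.84 CPM. Car4, a membrane-bound carbonic anhydrase of capillaries, was at 12.5, 4.29, 0.790 and 1.23 CPM, and 57 of its 60 counts in control 1 came from the endothelial-like cells. Foxf2, a forkhead factor of brain pericytes that also marks the endothelial-like cluster here, was at 8.95, 6.81, 0 and 1.64 CPM. Of the 7 endothelial markers, 6 were tested, 4 were lower at an unadjusted p under 0.05 (2.45% over all genes) and 0 were called. Both cKO libraries were below both controls for 2 of the 6 in CPM (6.8% over all genes) and for 3 after scaling (14.6%). The median log2 fold change was -2.21, and -1.52 without cKO 1, against -0.04 over all genes tested. The list summed to 124, 38.6, 24.5 and 29.3 CPM, with 5 of its 7 genes at 0 in cKO 1, so fewer vessel cells and less RNA per cell cannot be told apart in these sums.

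Of the other named genes below both controls, Rassf9, a Ras association domain protein, was at 4.79, 2.52, 0 and 0.410 CPM, and Igfbp7, a secreted protein abundant in vessels, at 44.3, 13.9, 9.28 and 9.83 CPM. Msln, mesothelin, had 10, 17, 0 and 0 counts, which makes it at least 10.2-fold lower with 3 counts taken as the limit over the cKO group. Of those 27 counts, 25 came from unnamed cells. Dclk3, a kinase of the doublecortin-like family, was at 3.54, 3.78, 0.790 and 0 CPM. Fos, the immediate early transcription factor, was at 41.2, 30.5, 20.7 and 7.78 CPM. Both cKO libraries were below both controls, and the log2 fold change was -1.84 with an adjusted p of 0.538 by edgeR. Of the other 7 tested immediate early and dissociation genes, none had an unadjusted p under 0.05. Jun was at 46.4, 74.7, 146 and 61.4 CPM and Egr1 at 38.7, 61.8, 45.6 and 27.2 CPM, and in CPM the groups overlapped for both. Of the 8 tested genes of this list, both cKO libraries were below both controls for 1 in CPM and for 3 after scaling. The shares over all genes were 6.8% and 14.6%. Both were above for 0 by either measure.

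Genes of mitosis had higher CPM in both cKO libraries than in both controls. Kif20b, a kinesin motor of late cell division (chromosome 19, 34922361 to 34975745, plus strand), had the smallest p of any gene whose cKO libraries were both higher. It was at 1.66, 3.53, 34.2 and 14.9 CPM, low in the controls and highest in cKO 1. Its log2 fold change was 2.84 with a standard error of 0.62 and an adjusted p of 0.0706 by edgeR, so it was not called. Without cKO 1 the log2 fold change was 2.56, with an adjusted p of 1.0. Kif15, a spindle kinesin, was at 1.46, 4.79, 21.3 and 13.5 CPM. Kif23, a kinesin of the central spindle, was at 0.832, 1.77, 12.8 and 7.17 CPM. The cKO libraries were above the controls for each of these kinesin genes. Pif1, a DNA helicase, had 0, 1, 31 and 13 counts, and Troap, a spindle-associated protein, 1, 4, 50 and 18. The others named on this side were Ttll3, at 1.04, 1.26, 18.2 and 3.69 CPM, Adarb2, at 2.91, 4.79, 34.4 and 9.83 CPM, and RP23-114B10.4, at 4.79, 8.83, 47.4 and 18.8 CPM, where cKO 1 was by far the highest.

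Of the 20 cell cycle genes listed, all were tested and 17 had both cKO libraries above both controls in CPM, and 15 after scaling, against 19.0% and 15.2% over all genes. A higher level in cKO at an unadjusted p under 0.05 was found for 11, against 2.33% over all genes, and edgeR called 0. The median log2 fold change was 1.40, and 1.05 without cKO 1, against -0.04 and -0.02 over all genes tested. Top2a, the topoisomerase of dividing cells, was at 12.9, 24.7, 91.8 and 67.0 CPM, and Mki67, the antigen used to mark proliferation, at 8.11, 11.4, 47.8 and 33.6 CPM. Ccnb1, a cyclin of mitosis, was at 8.95, 10.6, 58.1 and 18.4 CPM. Ccnd1, Pcna and Mcm2, genes of the G1 and S phases, overlapped between the genotypes, with log2 fold changes of -0.03, -0.27 and 0.15. Of the 20 genes, 18 were highest in cKO 1. The list includes Kif20b and Kif23, which were named above because their groups do not overlap, and it was chosen with earlier results of these data known. Mitotic members such as Top2a and Mki67 were highest in the same class of 255 dividing cells. The members are therefore not independent, and these counts are a description.

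The mitotic counts came from few cells. After thinning to 1000 UMIs, a Mki67 UMI was found in 0.319% and 0.493% of control cells, 2.45% of cKO 1 cells and 0.947% of cKO 2 cells. The share was 0.482% in astrocyte-like cells, with an exact 95% interval of 0.157% to 1.12%, which covers counting only. That interval holds the shares of both controls and of cKO 2. Dividing cells, whose marker list holds Mki67, had been set apart from this class, and 516 of its 1038 cells came from cKO 1. The comparison therefore cannot decide whether those shares are background. Of 121 microglia-like cells, 3 had a Mki67 UMI, 2.48%. The Kif20b counts of cKO 1 were 173, of which 140 came from 98 dividing cells, and 46 of the 73 in cKO 2 came from 64 such cells. Within the dividing class Kif20b was at 6.63, 95.0, 266 and 147 CPM, with a log2 fold change of 1.95 and an adjusted p of 0.990 by edgeR. The dividing class of control 1 had only 1 Kif20b count in 58 cells, whose median was 1906 UMIs, against medians of 2493, 4682.5 and 3595 in the other 3 libraries. Depth therefore moved with this difference, and its part in it was not tested.

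The promoters of the 3 named kinesin genes are shown because mitotic genes often share a short element near the start site, the cell cycle genes homology region, with the core TTTGAA. The windows run from 250 bases before to 50 after the annotated start (RefSeq, GRCm38.p6), at chr19:34922108-34922407 on the plus strand for Kif20b, chr9:122950831-122951130 on the plus strand for Kif15 and chr9:61946750-61947049 on the minus strand for Kif23. Capitals mark TTTGAA on either strand, which reads TTCAAA on the opposite one.
Kif20b: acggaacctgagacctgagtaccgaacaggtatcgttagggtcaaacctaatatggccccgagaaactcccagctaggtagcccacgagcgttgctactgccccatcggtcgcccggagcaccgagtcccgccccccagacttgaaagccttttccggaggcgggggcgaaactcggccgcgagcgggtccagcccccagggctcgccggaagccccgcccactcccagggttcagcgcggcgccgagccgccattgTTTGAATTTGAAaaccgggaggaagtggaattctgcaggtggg
Kif15: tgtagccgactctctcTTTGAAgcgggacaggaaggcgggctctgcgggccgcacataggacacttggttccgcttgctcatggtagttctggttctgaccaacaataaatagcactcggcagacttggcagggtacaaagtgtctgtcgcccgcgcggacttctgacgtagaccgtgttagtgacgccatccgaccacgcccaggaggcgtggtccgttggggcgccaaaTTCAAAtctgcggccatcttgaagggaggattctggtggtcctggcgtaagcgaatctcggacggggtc
Kif23: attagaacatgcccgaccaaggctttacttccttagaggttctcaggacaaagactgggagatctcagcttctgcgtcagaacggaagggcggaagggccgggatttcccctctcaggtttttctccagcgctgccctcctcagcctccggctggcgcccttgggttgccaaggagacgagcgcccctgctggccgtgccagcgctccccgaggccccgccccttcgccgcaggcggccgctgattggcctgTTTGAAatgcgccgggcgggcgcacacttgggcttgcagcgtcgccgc
The element began 7 and 13 bases after the start in Kif20b, 234 and 19 bases before it in Kif15 and 2 bases after it in Kif23. Of the 15 listed cell cycle genes with a promoter in the table, 11 held it, 73.3% of their 15 promoters, against 11.3% of the 11746 promoters of the genes tested and 17.9% of all 32851 promoters of this length. A match is a description of the letters in the window and no measure of binding.

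**Figure D4:**
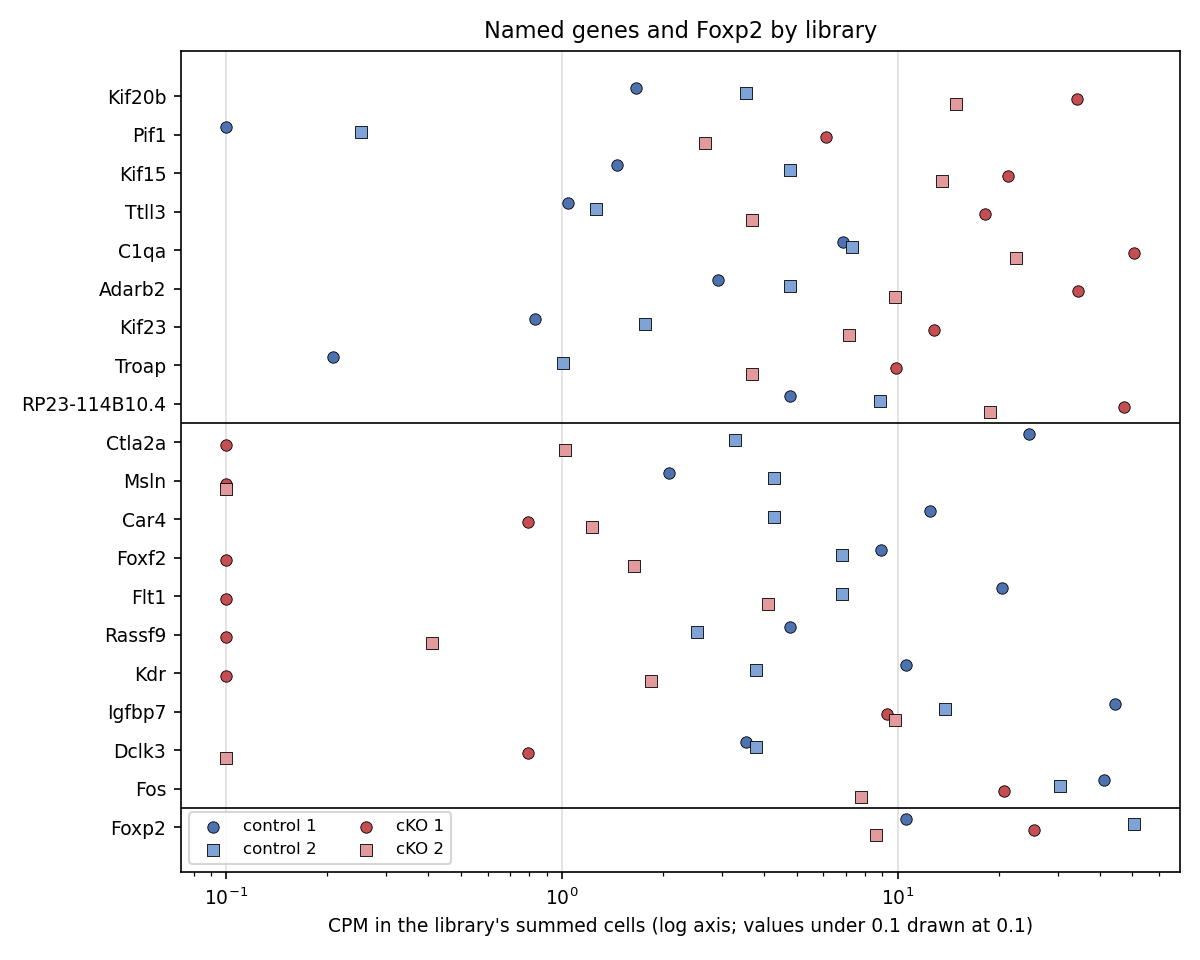
CPM in the summed cells of each GTE library (log x axis, values under 0.1 drawn at 0.1) for 9 named genes higher in both cKO libraries (top), the 10 lower in both (middle) and Foxp2 (bottom). The 2 cKO points lie to the right of both control points in the upper block and to the left in the middle block, where cKO 1 is at 0 for 6 genes, and the Foxp2 points interleave.

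For 5 of the 7 microglial markers tested, both cKO libraries were above both controls in CPM and after scaling, against 19.0% and 15.2% over all genes. C1qa, the first chain of complement C1q, was at 6.87, 7.32, 50.6 and 22.5 CPM, with a log2 fold change of 1.91 and an adjusted p of 0.535 by edgeR. P2ry12, the purinergic receptor of resting microglia, was at 13.7, 29.0, 119 and 23.3 CPM, and its groups overlapped. Of the 7, 5 were higher at an unadjusted p under 0.05, against 2.33% over all genes, and 0 were called. The median log2 fold change was 1.66, and 1.05 without cKO 1. The share of microglia-like cells overlapped between the genotypes, at 0.865%, 1.92%, 2.38% and 1.74%. These were 19, 35, 34 and 33 cells, with medians of 1795, 1658, 4704.5 and 1994 UMIs. The cells of cKO 1 were thus the deepest, and the part of depth in the marker levels was not tested.

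Myelin genes were high in cKO 1 alone, and precursor genes were highest there. Mbp, the myelin protein whose locus carries the golli promoter, was at 94.7, 210, 1333 and 189 CPM. Cldn11, a tight junction protein of myelin, was at 2.29, 9.59, 96.6 and 5.53 CPM. Of the 6749 Mbp counts in cKO 1, 93.5% came from its 69 oligodendrocyte-like cells. Of 12 listed myelin genes, 7 were tested, 6 were higher at an unadjusted p under 0.05 (2.33% over all genes) and 0 were called. All 7 were highest in cKO 1, and their groups overlapped in CPM. The median log2 fold change of 1.81 was -0.00 without cKO 1. For 6 markers of committed precursors the median was 1.49, and 0.30 without cKO 1. Enpp6, an early marker of cells that start to myelinate, was at 2.08, 24.2, 168 and 11.9 CPM, with overlap between the genotypes. Both cKO libraries were above both controls for 2 of the 6 in CPM and after scaling, against 19.0% and 15.2% over all genes. Of these, Bcas1 was at 28.7, 31.3, 162 and 46.9 CPM. For 6 oligodendrocyte precursor markers the medians were 0.82 and 0.41, and the list summed to 1264, 1430, 4166 and 1698 CPM. Both cKO libraries were above both controls for 3 of these 6 in CPM and after scaling, against the same 19.0% and 15.2% over all genes. Among them was Olig2, a transcription factor of the lineage, at 123, 171, 657 and 187 CPM. Pdgfra, the growth factor receptor of these cells, was at 122, 307, 785 and 279 CPM, and its groups overlapped.

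Astrocyte markers did not differ in this way. Of 8 tested, 0 had an unadjusted p under 0.05, and the median log2 fold change was -0.07, and -0.16 without cKO 1. Slc1a3, a glial glutamate transporter, was at 532, 1438, 2328 and 1209 CPM, and Aqp4, the water channel of astrocyte endfeet, at 271, 642, 712 and 409 CPM. Control 1 was lowest for both. For the 12 genes of the Notch pathway, which maintains neural progenitors, the median was 0.42, and 0.27 without cKO 1, with no member at an unadjusted p under 0.05. Hes5, a Notch target of glial progenitors, was at 214, 224, 781 and 336 CPM.

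Neuronal genes were lower on balance with cKO 1 included and less so without it. All 12 synaptic vesicle genes had a negative log2 fold change, with a median of -0.92, and -0.28 without cKO 1. Both cKO libraries were below both controls for 4 of the 12 in CPM and for 9 after scaling, against 6.8% and 14.6% over all genes. Of the 12, 2 were lower at an unadjusted p under 0.05, against 2.45% over all genes, and 0 were called. Stx1a, a syntaxin of the presynaptic membrane, was at 65.7, 55.3, 23.7 and 43.8 CPM, below both controls in both cKO libraries. Cplx2, a complexin that clamps vesicle fusion, was at 295, 389, 67.9 and 300 CPM, where only cKO 1 was low. Over 12 genes of the neuronal cytoskeleton the median was -0.90, and -0.26 without cKO 1, and 11 were lowest in cKO 1. The 6 excitatory neuron markers had medians of -1.03 and -0.32. Slc17a7, the vesicular glutamate transporter of cortical excitatory neurons, was at 24.1, 39.4, 8.89 and 22.7 CPM, and Tbr1, a transcription factor of deep-layer neurons, at 31.4, 117, 30.6 and 33.0 CPM.

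The subunits of glutamate and GABA receptors had a median log2 fold change of -0.61, and -0.48 without cKO 1, over 12 genes. Of these, 4 had an unadjusted p under 0.05, all lower in cKO, against 2.45% over all genes, and 0 were called. Both cKO libraries were below both controls for 3 of the 12 in CPM and for 6 after scaling, against 6.8% and 14.6% over all genes. They were above both for 0 by either measure. Grin2b, an NMDA receptor subunit of early life, was at 93.8, 161, 53.5 and 78.4 CPM, below both controls in both cKO libraries. Foxp2, Tbr1, Hs3st4 and Nptx1 were among the 10 genes that most marked control 2, and all 4 were highest in that library.

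Genes reported as FOXP2 targets and genes of dopamine signalling were examined next. Of 13 tested genes reported as targets of FOXP2, 1 was higher and 1 lower at an unadjusted p under 0.05 and 0 were called. Over all genes the shares were 2.33% higher and 2.45% lower. Both cKO libraries were below both controls for 3 of the 13 in CPM and for 4 after scaling, against 6.8% and 14.6% over all genes. They were above both for 1 in CPM and 1 after scaling, against 19.0% and 15.2%. The median log2 fold change of the targets was -0.28, and -0.10 without cKO 1. Met, the receptor for hepatocyte growth factor, was at 17.3, 24.5, 3.95 and 8.40 CPM with a log2 fold change of -1.98 and an adjusted p of 0.538 by edgeR. Cntnap2, a neurexin-like adhesion protein, was at 35.2, 50.2, 50.4 and 34.6 CPM before scaling. The gene that the table names Drd, which the labels do not identify further, was at 2.29, 7.57, 2.17 and 1.02 CPM, below both controls in both cKO libraries. Its counts were few, the log2 fold change was -1.92 and the adjusted p 0.991 by edgeR. The median over 12 tested genes of dopamine receptors and D1 signalling was -0.43, and -0.10 without cKO 1. Of these 12, both cKO libraries were below both controls for 2 in CPM and 4 after scaling, and above both for 0 by either measure.

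**Figure D5:**
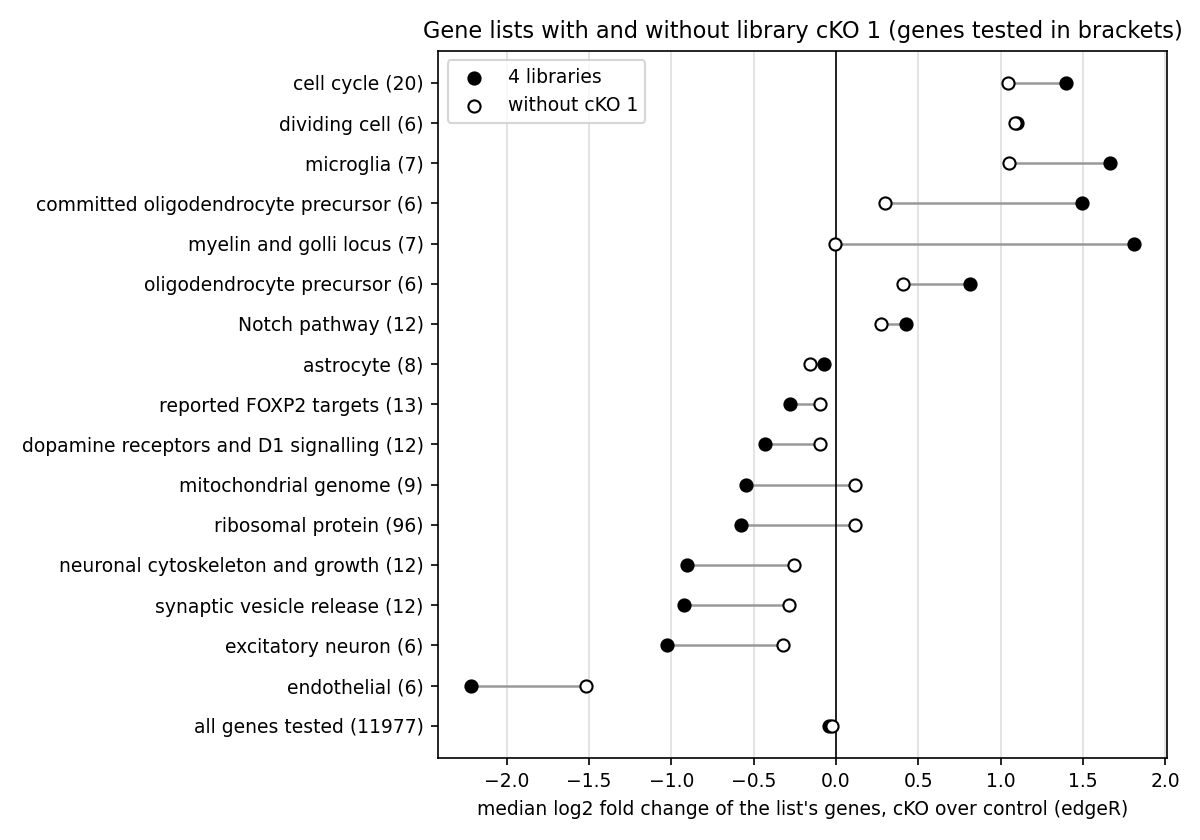
Median log2 fold change, cKO over control (x axis), of the tested genes of 16 lists and of all 11977 genes (y axis, number of genes in brackets), with all 4 libraries (filled) and without cKO 1 (open). The cell cycle (1.40 and 1.05), dividing cell and microglia medians keep well above 0 without cKO 1, while the myelin median goes from 1.81 to 0.00 and the medians of excitatory neuron, synaptic vesicle and cytoskeleton genes move most of the way to 0. All dividing cell markers are also in the cell cycle list, and the open points rest on the female library cKO 2 alone for cKO.

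Among the remaining lists, markers of layer 5 had a median log2 fold change of -0.29, of upper layers -0.14, of neuroblasts -0.05, of radial progenitors -0.19, of layer 6 corticothalamic neurons -0.39 and of interneurons -0.49. Without cKO 1 the signs changed for layer 5 (0.16), neuroblasts (0.08), radial progenitors (0.04) and interneurons (0.25), and the medians were -0.04 for upper layers and -0.30 for layer 6 corticothalamic neurons. At most 2 genes of any of these 6 lists had an unadjusted p under 0.05 (2.33% higher and 2.45% lower over all genes) and 0 were called. For 4 tested subplate genes the median was 0.55, and for 5 genes of antigen presentation and interferon response 0.25, with signs that changed without cKO 1, to -0.08 and -0.60. For 3 mural cell genes it was -0.54, and -0.80 without cKO 1.

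Some genes were present in 1 or 2 libraries and absent from the rest. Haemoglobin genes summed to 2920, 0, 0 and 6234 CPM, although only 2 cells of control 1 and 4 of cKO 2 had at least 5% of their UMIs from them. The mitochondrial gene mt-Co2 was at 54.3 CPM in control 1 and 0 elsewhere, mt-Atp8 at 291 CPM in cKO 2 and 0 elsewhere, and mt-Atp6 at 0 in cKO 1 only. DESeq2 called mt-Atp8 and mt-Co2, each of which rested on 1 library, and the pattern did not follow genotype. Without cKO 1, edgeR called 8 of 12224 genes, 0.0654%. They comprised 3 mitochondrial genes, Sv2b, which encodes a synaptic vesicle protein, and the Y-linked genes Eif2s3y, Uty, Ddx3y and Kdm5d, as the 1 remaining cKO library was the female one.

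Fits within cell classes were made for the 8 classes with at least 30 cells in every library. They made 16 calls in all. In oligodendrocyte precursor-like cells Fos was lower in cKO, 1 of 7354 genes or 0.0136%. It was at 189, 51.8, 16.3 and 20.8 CPM, with a log2 fold change of -2.87, a standard error of 0.57 and an adjusted p of 0.0291 by edgeR. The counts were 66, 22, 19 and 11, and the call was lost in 4 of 7 alternatives. Fos in astrocyte-like cells was at 269, 85.9, 45.4 and 25.3 CPM, below both controls in both cKO libraries, with a log2 fold change of -2.46 and an adjusted p of 1.0 by edgeR. In both classes control 1 was by far the highest.

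In cluster 1, 15 of 8061 genes were higher in cKO, 0.186%. They included Lrp1b, a large lipoprotein receptor, at 3.39, 23.0, 325 and 9.86 CPM, and the splicing factors Pnisr, at 24.9, 39.7, 642 and 21.2 CPM, and Rbm39, at 66.7, 109, 1297 and 80.4 CPM. Gpr17, a receptor of committed oligodendrocyte precursors, was at 4.52, 19.8, 243 and 14.4 CPM. The cKO 1 value stood alone in each of these, and cKO 2 lay among or close to the controls. The groups overlapped for 13 of the 15, the exceptions being Cd164 and Cald1, and 7 of the 15 had the opposite sign without cKO 1. The cluster held 122 cells of cKO 1, with a median of 2886.5 UMIs, against medians of 1752.5 to 1991.5 in the other libraries. The calls moved with that library, and the part of depth in them was not tested. No gene was called in astrocyte-like cells, dividing cells or clusters 2, 5, 6 and 8 by edgeR (0.0% in each), where 49 to 194 genes had an unadjusted p under 0.05. DESeq2 also called 0 in these 6.

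Whether the genotype difference in the GTE sort differed from that in the D1Tom sort was tested as an interaction over all 8 libraries. Of 14016 genes edgeR called 0, 0.0%, and 458 had an unadjusted p under 0.05, while DESeq2 called 4, among them mt-Co2, Kif20b and Ddx3y. The interaction for Foxp2 was -0.49 on the log2 scale, with an adjusted p of 0.957 by edgeR. For Kif20b it was 2.71, with an adjusted p of 0.956 by edgeR and 0.017 by DESeq2. In the D1Tom libraries Kif20b was at 9.59, 8.63, 10.3 and 9.24 CPM, with overlap between the genotypes, and its GTE control levels lay below all 4 of them.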

How the data were processed

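Single cells were profiled with 10x Genomics Chromium 3′ chemistry, per the labels' protocols, in 4 GTE and 4 D1Tom libraries. For either sort the authors deposited 1 table of UMI counts, genes by cells and not normalized, and per the file headers a table of cell data whose SampleName column assigned cells to libraries. The fractions of mitochondrial and ribosomal UMIs per cell are the deposited values. The submitters' processing notes list Cell Ranger 2.1.1, UMI-tools 0.5.4, STAR 2.5.2b, Subread 1.6.2, SAMtools 1.6, FastQC 0.11.5 and bcl2fastq 2.17.1.14, and the builds mm10 and GRCm38.p6. Of 15769 gene symbols, 94.0% matched GENCODE M21, whose coordinates are printed. Counts of 2 were 0.931 to 1.38 times as frequent as counts of 1, so no Poisson interval was put on sums of counts.

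Cells with at least 1000 UMIs were clustered on 2000 variable genes, 30 principal components and 20 neighbours by the Leiden method at resolution 1 (leidenalg 0.10.2, scikit-learn 1.9.0, numpy 2.4.6, Python 3.11.15). A cluster was named from a marker list when 3 or more markers, and the list's median, were at least 2-fold above the remaining cells. No other list could have more genes among the cluster's 10 leading genes. Clusters with few UMIs for their libraries needed such a leading gene. The erythroid list named no cluster, and names can differ from the authors'. No doublet caller was run, and the 2% of cells with the most UMIs were left out in an alternative. The exact binomial intervals on cell shares are at 95% and, like the limit of 3 counts for a count of 0, cover counting error only.

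Counts summed per library were tested with edgeR 4.0.16 in R 4.3.3 (quasi-likelihood test, TMM scaling, the default filterByExpr filter, Benjamini-Hochberg adjustment at 0.05), after the scripts were tested on simulated data. DESeq2 1.42.0 was an alternative. Classes with at least 30 cells in every library were fitted. The text of the preparation batches for GTE repeats that for D1Tom and does not match the GTE sexes, so GTE batches are unknown and no batch term was fitted. Same-numbered GTE libraries did not deviate together, with a correlation of -0.34 across 11977 genes. Genes are named where called, where they are the 10 with the smallest p in each direction whose groups do not overlap, where they most mark a library at 50 CPM or more, and where they belong to a list. The members and lists were chosen with earlier results of these data known, and the ribosomal list and the promoter motif were added after seeing the data. Alternatives left out each library, glia-like cells or cells rich in haemoglobin, moved the UMI minimum, thinned the cells to 1000 UMIs, dropped the filter, changed the scaling and the tool, and added the replicate block. Results for some genes that meet these rules are not reported here.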

Additional observations from a re-analysis of the deposited data

How the results depend on the processing

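The gene count of the GTE comparison was 1 and moved widely. It was 2 with DESeq2, 19 with no filter on low counts, 4 with all deposited cells and with at least 500 UMIs, 0 with at least 2000 UMIs, 9 without haemoglobin-rich cells, 18 without glia-like cells and 0 without endothelial-like cells. Leaving out 1 library at a time gave 7 to 39 calls: 7 without control 1, 39 without control 2, 8 without cKO 1 and 26 without cKO 2, and DESeq2 without cKO 1 gave 4. Without glia-like cells, 15 of the 18 were higher in cKO, among them Kif20b, Kif23, Kif15 and Top2a. Glia-like cells were 69.2% of cKO 1 and 9.93% to 24.5% of the other libraries. Dividing cells stayed in this fit, so their share of the remaining cells rose most in cKO 1. With the replicate block the count was 0 for all cells, 0 for genotype by sort and 1 within cell classes, and with the crossed pairing of the numbers it was 10 for all cells. The cause of these moves was not tested. The 19 named genes kept their direction in every alternative that gave a value. They were picked because the genotypes did not overlap, so leaving out 1 library could hardly reverse them, and this is no separate support. Ctla2a had an adjusted p under 0.05 in 10 of 16 alternatives and Kif20b in 8 of 19.

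For genotype by sort the count of 0 was 4 with DESeq2. The 16 calls within cell classes became 1 with DESeq2, 32 with no filter and 18 to 826 with 1 library left out, where 826 was without cKO 2 and 311 without control 2. In cluster 1, log2 fold changes with 1 library left out, lowest without cKO 1, ran from -0.16 to 4.87 for Lrp1b, -0.46 to 3.74 for Pnisr, -0.46 to 3.57 for Rsrp1, -0.040 to 4.30 for Krit1, -0.19 to 9.71 for Pcdh15 and -0.026 to 3.31 for Sox8. Foxp2 had a log2 fold change of 0.031 without control 2 and -1.83 to 0.031 over the 4 libraries left out, with no adjusted p under 0.05. The glia-like difference was -0.42 percentage points without cKO 1 and up to 52.0 without cKO 2, and 11.7 with thinned cells, where a cluster with astrocyte genes stayed unnamed. With 2 libraries a genotype and unknown batches, these data bound no small difference.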

Other observations

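The GTE libraries held a few Cajal-Retzius-like cells, early-born neurons of the outermost cortical layer that make reelin, with 0, 4, 8 and 3 cells in the order control 1, control 2, cKO 1, cKO 2. Of the 6 listed markers 4 were tested and 0 were called by edgeR. At an unadjusted p under 0.05, 3 were higher in cKO, against 2.33% over all genes. Reln, the reelin gene, was at 7.70, 30.8, 44.0 and 48.3 CPM, and Trp73, a p53 relative these neurons express, at 0, 2.27, 3.95 and 5.94 CPM. The median log2 fold change of the tested markers was 1.27, and 1.40 without cKO 1.

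Slc22a15, an organic cation transporter family gene, was at 93.4, 13.1, 16.2 and 8.60 CPM, highest in control 1, and was the 1 gene called with cells thinned to 1000 UMIs. Ribosomal protein genes had a median log2 fold change of -0.58 over 96 tested genes, of which 82 were lowest in cKO 1, and 0.12 without that library. The 9 tested genes of the mitochondrial genome were all lowest in cKO 1, with a median of -0.55, and 0.11 without it.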
